A study of Mus musculus with 24 samples.

Results

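The genes described are 45 imprinted mouse genes and close neighbours of imprinted clusters, chosen by symbol from 24456 genes in the count tables and grouped into 19 clusters. All 45 symbols were found, and 40 of them had enough reads to be tested among 17170 tested genes. By textbook knowledge 15 of the 45 are expressed mainly from the maternal copy, 24 mainly from the paternal copy, and 6 are imprinted in some tissues or transcripts only, or are neighbours. The samples, labelled testis, were taken from males 20, 22, 24 and 26 days after birth, either wild type (WT) or homozygous for a knockout (KO) of *Atad2*. Each genotype had 4 libraries on day 20, 4 on day 22, 2 on day 24 and 2 on day 26. The KO allele carries a lacZ cassette that is spliced to the upstream exons of *Atad2*, and a ubiquitously active Cre transgene under the CMV promoter had removed the neo cassette and an exon downstream. ATAD2 is a chromatin factor with a bromodomain and an ATPase domain, found in embryonic stem cells and male germ cells. The comparison asks which of these genes change in the testis without it, at ages when the first round and then the first elongating spermatids appear.

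In an imprinted gene the copies from mother and father differ in activity. The difference is set by DNA methylation laid down in the germ line at control regions, and several genes of a cluster often share a control region with a long noncoding RNA. In male germ cells the parental marks are erased and paternal ones set anew before birth, whereas the somatic cells of the testis (Sertoli, Leydig, peritubular and stromal cells) keep them. Many paternally expressed genes promote growth and many maternally expressed genes restrain it. The counts used here do not separate the alleles, so they show total RNA of a gene and not its parental origin.

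Each library held between 10709667 and 19491935 counts assigned to genes. Transcripts of *Atad2* were lower in KO by 1.67, 1.12, 1.43 and 1.25 on the log2 scale on days 20, 22, 24 and 26, and only the day 26 difference missed the threshold (edgeR quasi-likelihood test, adjusted p = 0.0628). The methods describe RNA from harvested testes, whereas the labels' protocol also speaks of purified spermatogenic cell fractions. Libraries held RNA of Sertoli cells, Leydig cells and germ cells, so they were treated as testis. In addition, 9 libraries, 5 WT and 4 KO, had between 13.4 and 637 CPM (counts made comparable between libraries by their size) of *Crisp1*, a defining transcript of the epididymis, against at most 1.87 CPM in the other 15. These were WT replicate 3 and KO replicate 3 on day 20, WT replicates 3 and 4 and KO replicate 1 on day 22, and replicate 2 of both genotypes on days 24 and 26. WT replicate 2 of day 20 also stood apart, with 3.26% of its counts on mitochondrial ribosomal RNA and 13.7% of its reads aligned to several places. The study calls its replicates biological, and the labels number them without naming the animals, so p-values measure the spread between these samples. Germ cell transcripts differed too: 8 of 9 tested round spermatid markers were higher in KO on day 20 (median log2 fold change 3.23), as were 4 of 7 elongating spermatid markers on day 22 (median 4.46). In such bulk samples, fewer cells of a type and less RNA per cell cannot be told apart.

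Imprinted genes spanned a wide range of levels in the testis. Given per length of exon (CPM divided by exon length in kilobases, RPKM), the median over 24 libraries was highest for *Copg2*, a coat protein of transport vesicles, at 32.1. *Mcts2*, a retrogene inside *H13*, followed at 29 RPKM, *Peg10*, a gene derived from a retrotransposon, at 27.9 RPKM and *Gnas*, the G protein subunit that stimulates adenylyl cyclase, at 25.6 RPKM. *Sfmbt2*, a Polycomb gene, stood at 21.6 RPKM. Noncoding RNAs were spread below these, with the antisense RNA *Nespas* at 9.49 RPKM, *Kcnq1ot1* at 6.44 RPKM, *H19* at 4.03 RPKM, *Meg3* at 1.21 RPKM, *Rian* at 1.17 RPKM and *Airn* at 0.423 RPKM. Ranges over libraries were narrow for *H13* (9.74 to 11.7 RPKM), which encodes signal peptide peptidase, and wide for *Dlk1* (0.213 to 4.59 RPKM). Neighbours in this order, such as *Peg10* and *Mcts2*, overlapped over libraries, and the order of the leading genes turned with genotype: in WT the medians were 31.3 RPKM for *Peg10*, 30.8 RPKM for *Mcts2* and 30.5 RPKM for *Copg2*, and in KO 26.4, 28.4 and 33.2 RPKM.

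**Figure D1:**
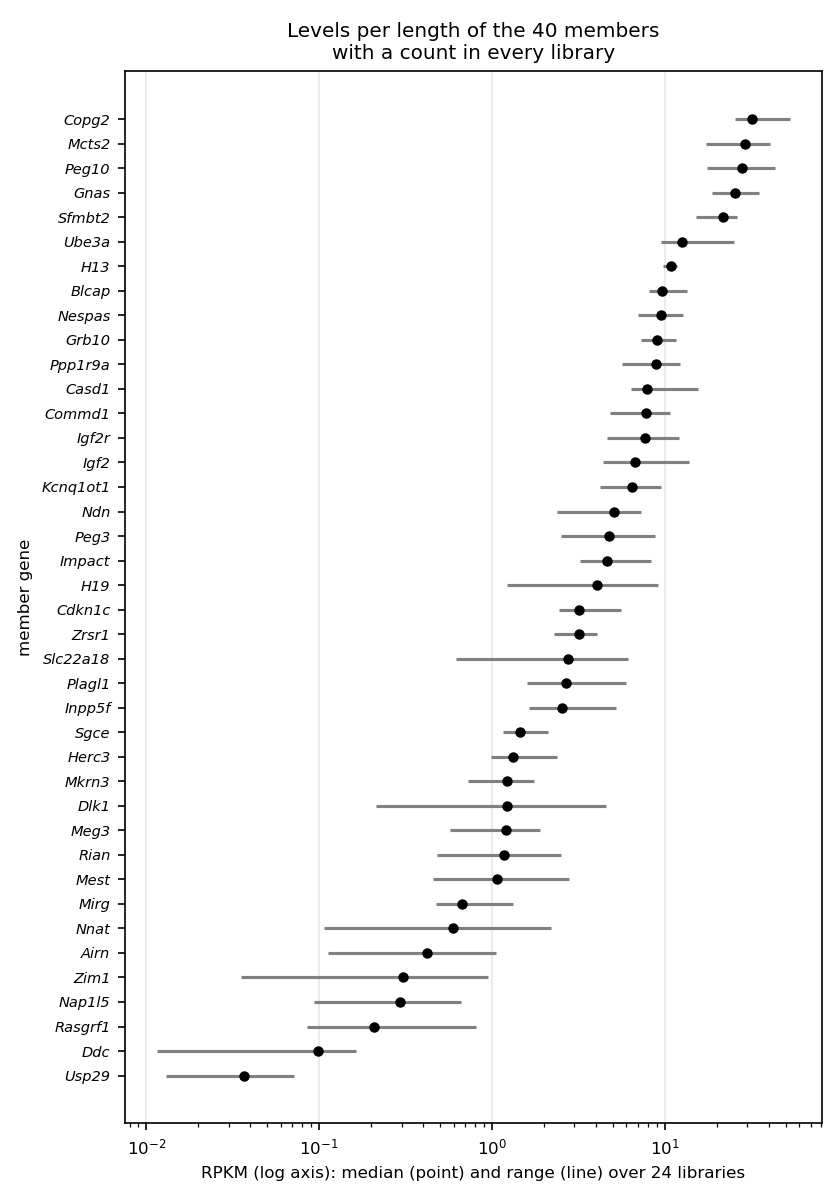
Levels of the 40 members with a count in every library, in RPKM on a log axis; points are medians and lines the lowest and highest of 24 libraries. Over WT and KO together *Copg2* leads at a median of 32.1 RPKM (in WT alone *Peg10* does) and *Usp29* is lowest at 0.0368 RPKM.

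The 5 members that were not tested were near or at 0. *Rtl1*, another retrotransposon-derived gene, had at most 3 counts in a library, *Magel2* at most 5 and *Phlda2*, a growth-restraining gene of the placenta, at most 8. *Snrpn* had at most 1 count and *Snurf* none in any library. In the annotation used here all 216 exon bases of *Snurf* are shared with *Snrpn* on the same strand. Read pairs whose bases all lie in both genes were left uncounted, so the empty row of *Snurf* cannot be read as absence of transcription. Of *Snrpn* 216 of 2159 exon bases are shared, so this overlap covers a small part of that gene. The gene models on which the authors counted are not known. A count of 0 allows up to 3 counts, which is 0.153 to 0.316 CPM depending on the library.

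Over the mean of the 4 days, 8 of the 40 tested members were lower in KO and none was higher in edgeR. They were *H19*, *Igf2r*, *Meg3*, *Rian*, *Zim1* and *Grb10*, which are expressed from the maternal copy, and *Peg3* and *Nnat*, which are expressed from the paternal copy. Of all tested genes 7.08% passed the same test, 3.52% higher and 3.56% lower in KO, and at an unadjusted p under 0.05 the shares were 17 of 40 members and 23.2% of all genes (edgeR quasi-likelihood test with Benjamini-Hochberg adjustment over 17170 genes, adjusted p under 0.05). The members' median log2 fold change was -0.14, against 0.01 over all tested genes. Of 14 tested maternally expressed members 6 fell, of 20 paternally expressed ones 2 fell, and of the 6 others none passed. Leaving out 1 library gave 1 called member (without WT replicate 2 of day 24, 1.73% of all genes) to 12 (without KO replicate 1 of day 22, 10.1% of all genes). DESeq2 called 12 members, 11 lower and 1 higher (*Slc22a18*), where it called 10.6% of all genes. Over the same mean 6 of 7 elongating spermatid markers (median log2 fold change 2.64) and 4 of 9 round spermatid markers (median 1.04) were higher in KO. Without the 9 libraries that held epididymal transcripts, none of the 40 passed and 0.199% of all genes did, and the estimates for the 8 lay between -0.79 and -0.14.

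Day by day, fewer members passed. On day 20 none of the 40 was called, where 3.34% of all genes were. An unadjusted p under 0.05 was seen for 6 members (12.5% of all genes), and DESeq2 also called 0 (5.25% of all genes). On day 22 *H19* alone fell in edgeR, where 2.51% of all genes were called, 1.26% higher and 1.25% lower, and 13 members (14.6% of all genes) had an unadjusted p under 0.05. DESeq2 called 2 on that day, *H19* and *Dlk1* (4.36% of all genes), and a fit of only its 8 libraries called 0 (0.438%). On day 24 no member passed (0.0874% of all genes, 0.0175% higher and 0.0699% lower), and 3 (5.23% of all genes) had an unadjusted p under 0.05. On that day DESeq2 called 1 member and 0.233% of all genes. On day 26 no member passed (0.0466% of all genes), although 10 (11.5% of all genes) had an unadjusted p under 0.05. DESeq2 again called 0, where it called 0.891% of all genes. Fitted with only the 4 libraries of that day, 9 were called on day 26, 7 lower and 2 higher, and 12.8% of all genes. The estimates had the same sign on all 4 days for 20 members, 16 lower and 4 higher in KO. The latter were *Copg2*, *Slc22a18*, *Nespas* and *H13*, and none of these 4 passed in edgeR on any day or over the mean. The day 20 estimates of *Copg2* and *H13* were 0.00. Signs over the days were not counted for all genes.

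**Figure D2:**
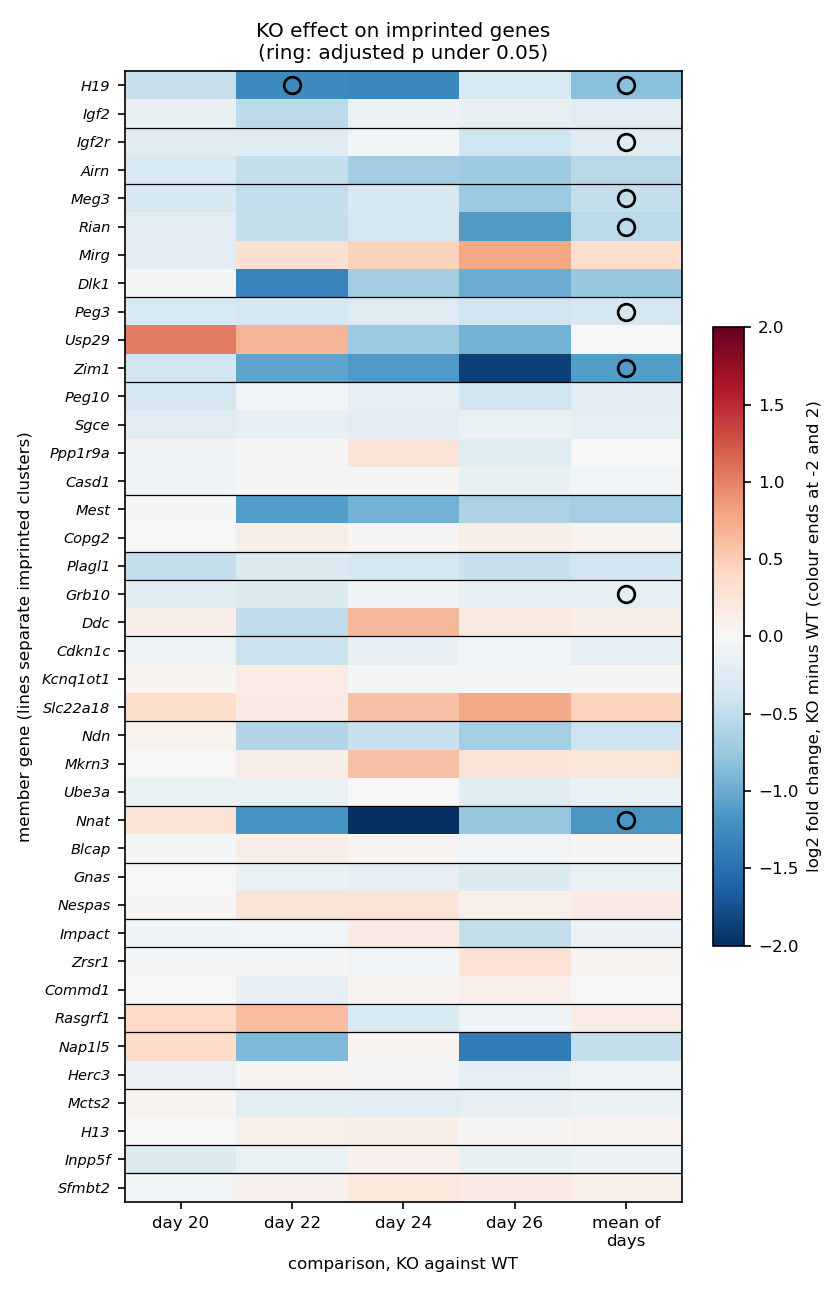
Log2 fold change of the 40 tested members, KO minus WT, on each day and over the mean of the days; rings mark an adjusted p under 0.05. Rings stand at *H19* on day 22 and at 8 members over the mean, all on the blue, lower side.

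*H19*, a long noncoding RNA that restrains fetal growth, lies on distal chromosome 7 with *Igf2* (mm10, chr7:142575529-142578143, minus strand). It is also the precursor of a microRNA, whose mature arms are shown with bases 2 to 8, the seed that pairs with targets, in capitals (RefSeq, GRCm38.p6):
miR-675-5p: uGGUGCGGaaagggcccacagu
miR-675-3p: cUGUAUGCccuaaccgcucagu
A read pair was counted for a gene only where all its bases lay in exons of that gene and of no other, so the hairpin's row of 0 in all 24 libraries says nothing of the microRNA.

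On day 20, *H19* stood at 11.5, 11.8, 20.5 and 12.5 CPM in WT and at 7.25, 9.87, 11.2 and 12.8 CPM in KO. The day 20 groups overlapped. On day 22 it stood at 9.93, 11, 10.7 and 22.6 CPM in WT and at 6.47, 4.09, 6.52 and 5.56 CPM in KO, so that every KO library lay below every WT library. The day 24 values were 13.2 and 16.2 CPM in WT against 6.15 and 5.82 CPM in KO, again without overlap. By day 26 the RNA had declined to 3.53 and 4.66 CPM in WT and 3.03 and 3.56 CPM in KO, and the groups overlapped. *H19* thus had a log2 fold change of -1.27 ± 0.256 (SE) on day 22 (adjusted p = 0.0146) and -0.83 ± 0.16 over the mean of days (adjusted p = 0.00465). The day 22 call was lost without WT replicate 4 or KO replicate 2 of that day (adjusted p up to 0.0879 over leave-one-out fits), whereas the mean passed in all 24 such fits. *Igf2*, the growth factor next to it, ranged from 25.3 to 78.7 CPM and had a log2 fold change of -0.23 ± 0.12 over the mean (adjusted p = 0.25).

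The highest *H19* library of each WT day was one with epididymal transcripts: WT replicate 3 on day 20, replicate 4 on day 22 and replicate 2 on days 24 and 26. In KO this held only on day 26: the highest *H19* libraries of days 20, 22 and 24 were replicates 4, 3 and 1, which are not among the 9. *Crisp1* in the 4 WT libraries was 271, 520, 637 and 479 CPM, and the highest *Crisp1* value among KO libraries was 42.6, 113, 134 and 109 CPM on the 4 days. Without all 9 libraries that held such transcripts, the *H19* estimate was -0.62 ± 0.174 (adjusted p = 0.482), and with the *Crisp1* level as a covariate it was -0.73 ± 0.125 (adjusted p = 0.00181). The part of epididymal tissue in the result was not tested beyond these fits.

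*Nnat* encodes neuronatin, a small membrane protein of neuroendocrine cells, and lies within an intron of *Blcap* on the opposite strand (chr2:157560078-157562522, plus strand). The 250 bases before its start are shown because *Nnat* had the largest KO difference over the mean of days; capitals mark CpG, the dinucleotide whose methylation distinguishes the parental copies (RefSeq promoter table, GRCm38.p6, chr2:157559828-157560077, plus strand):
Nnat: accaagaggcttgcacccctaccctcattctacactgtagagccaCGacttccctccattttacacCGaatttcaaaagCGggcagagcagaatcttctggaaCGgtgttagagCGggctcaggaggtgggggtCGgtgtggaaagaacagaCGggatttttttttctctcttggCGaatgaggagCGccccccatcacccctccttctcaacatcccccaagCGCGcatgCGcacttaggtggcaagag
It holds 12 CpG, against a median of 6 in 32851 promoter windows of this length.

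*Nnat* was a low transcript. On day 20 it stood at 1.1, 0.948, 1.5 and 1.08 CPM in WT and at 0.798, 1.37, 1.78 and 1.69 CPM in KO, with overlap. On day 22 the WT libraries held 1.55, 2.26, 1.11 and 2.05 CPM and the KO libraries 0.726, 0.842, 0.923 and 0.536 CPM, without overlap. On day 24 the values were 1.37 and 4.01 CPM in WT against 0.484 and 0.196 CPM in KO, and here too no KO library reached the WT range. On day 26 they were 0.463 and 1.15 CPM in WT and 0.275 and 0.631 CPM in KO, with overlap. The log2 fold change was 0.27 ± 0.378 on day 20, -1.18 ± 0.383 on day 22, -2.96 ± 0.595 on day 24 and -0.76 ± 0.612 on day 26. None of these passed alone (adjusted p = 0.0617 on day 24). Over the mean it was -1.16 ± 0.253 (adjusted p = 0.0126). That call was lost without WT replicate 2 of day 24 or WT replicate 2 of day 26 (adjusted p up to 0.0641), both of which held epididymal transcripts. Without all such libraries the estimate was -0.79 ± 0.299 (adjusted p = 0.697). *Blcap*, its host gene, had a log2 fold change of 0.02 ± 0.0663 over the mean.

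*Peg3* and *Zim1*, both zinc finger genes, lie side by side on proximal chromosome 7 (*Peg3*, chr7:6703892-6730431; *Zim1*, chr7:6671269-6696450, both on the minus strand). *Peg3* is paternally and *Zim1* maternally expressed, and both fell. The 250 bases before each start are given with CpG in capitals (RefSeq, GRCm38.p6; *Peg3*, chr7:6730420-6730669; *Zim1*, chr7:6696433-6696682):
Peg3: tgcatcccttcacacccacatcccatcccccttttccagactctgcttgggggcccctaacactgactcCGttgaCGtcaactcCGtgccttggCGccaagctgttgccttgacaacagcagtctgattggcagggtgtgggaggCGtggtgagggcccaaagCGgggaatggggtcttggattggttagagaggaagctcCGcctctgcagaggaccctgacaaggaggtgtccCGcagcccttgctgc
Zim1: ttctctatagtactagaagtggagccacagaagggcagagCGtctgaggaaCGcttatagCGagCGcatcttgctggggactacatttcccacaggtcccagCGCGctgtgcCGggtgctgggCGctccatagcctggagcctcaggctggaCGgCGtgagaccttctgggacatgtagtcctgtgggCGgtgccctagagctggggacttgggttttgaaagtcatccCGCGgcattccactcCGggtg
The *Peg3* window holds 8 CpG, a CCAAT box and the palindrome TGACGTCA known as a cyclic AMP response element, and the *Zim1* window holds 14 CpG and a GC box (GGGCGG). These matches are descriptions of the letters and not of binding.

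*Peg3* fell with age and lay somewhat lower in KO throughout. On day 20 it stood at 102, 99.3, 118 and 93.7 CPM in WT and at 77.8, 98.3, 79.8 and 75.9 CPM in KO. On day 22 the values were 61.8, 62.1, 72.5 and 84.5 CPM in WT and 51.4, 48.5, 63.9 and 57.2 CPM in KO. Day 24 gave 60.8 and 73.2 CPM in WT and 62.4 and 49.7 CPM in KO. The groups overlapped on each of these days and not on day 26, at 45.1 and 48.5 CPM in WT against 37.3 and 33.4 CPM in KO. The log2 fold change over the mean was -0.33 ± 0.0775 (adjusted p = 0.0179). It was lost without KO replicate 2 or WT replicate 2 of day 24 or KO replicate 2 of day 26 (adjusted p up to 0.082), and without the 9 libraries with epididymal transcripts it was -0.14 ± 0.11 (adjusted p = 0.872).

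*Zim1* was far lower, at 3.46, 6.21, 7.69 and 3.89 CPM in WT and 3.99, 7, 3.43 and 1.9 CPM in KO on day 20. On day 22 it stood at 1.97, 2.68, 3.15 and 6.8 CPM in WT and at 3.39, 0.902, 1.85 and 0.939 CPM in KO. Day 24 gave 1.92 and 6.52 CPM in WT and 1.93 and 1.9 CPM in KO. The groups overlapped on days 20, 22 and 24, and on day 26 KO, at 0.689 and 0.287 CPM, lay below WT, at 1.27 and 2.3 CPM. The highest WT libraries on days 20, 22, 24 and 26 were again those with the most *Crisp1*, whereas in KO this held on day 22 and not on days 20, 24 and 26. Over the mean, the log2 fold change was -1.11 ± 0.328 (adjusted p = 0.045). The call held in 6 of 24 leave-one-out fits, those without WT replicate 1 or 4 or KO replicate 2 of day 20, without replicate 1 of either genotype of day 22, or without WT replicate 1 of day 24, and the adjusted p rose to 0.184 among the rest. Without the 9 libraries the estimate was -0.45 ± 0.351. *Usp29*, a deubiquitinase gene of the same cluster, had estimates of both signs. Its log2 fold change, KO minus WT, was 1.03 ± 0.36 on day 20, 0.68 ± 0.331 on day 22, -0.73 ± 0.442 on day 24 and -0.94 ± 0.463 on day 26, at levels of 0.236 to 1.29 CPM. None of these passed, nor did the test that the KO effect differs between days (adjusted p = 0.338).

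The *Dlk1* to *Meg3* cluster on chromosome 12 holds the noncoding RNAs *Meg3* (chr12:109541001-109571726), *Rian* (chr12:109603940-109661716) and *Mirg* (chr12:109729764-109749460), all transcribed from the maternal copy on the plus strand. *Meg3* and *Rian* fell in KO and *Mirg* did not. *Rian* and *Mirg* carry many small RNAs in their introns and exons: 3 microRNA hairpins lay within *Rian* and 14 within *Mirg*. The mature microRNAs of *Rian*, the member of this cluster with the largest difference over the mean among those that passed, have 6 different seeds (capitals, RefSeq):
miR-341-5p: cGGUCGGCcgaucgcucgguc
miR-341-3p: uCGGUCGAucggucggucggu
miR-1188-5p: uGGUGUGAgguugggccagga
miR-1188-3p: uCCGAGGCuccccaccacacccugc
miR-370-5p: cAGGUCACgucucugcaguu
miR-370-3p: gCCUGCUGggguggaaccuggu
Among the 45 mature microRNAs that lay within 8 members there were 44 seeds, and the shared seed belonged to a pair from *Mirg*:
miR-453: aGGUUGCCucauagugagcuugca
miR-496a-5p: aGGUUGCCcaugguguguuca
The rows of 23 hairpins within these members held 0 counts. The libraries were not made for small RNAs, so these microRNAs were not measured and only their host transcripts were.

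On day 20, *Meg3* stood at 29, 18.4, 34.3 and 34 CPM in WT and at 23.4, 22.8, 20.2 and 26.5 CPM in KO. On day 22 it stood at 19.8, 19.2, 25.2 and 26.7 CPM in WT and at 10.3, 17, 21.2 and 16.1 CPM in KO. Both days showed overlap. Day 24 gave 26.8 and 25.6 CPM in WT against 22.9 and 19.2 CPM in KO, and day 26 gave 28.2 and 19.2 CPM in WT against 16.1 and 12.7 CPM in KO, neither with overlap. Over the mean, *Meg3* had a log2 fold change of -0.47 ± 0.124 (adjusted p = 0.0304). It passed in 13 of 24 leave-one-out fits. The 11 in which it did not were those without WT or KO replicate 3 of day 20, WT replicate 3 or 4 of day 22, any library of day 24, either KO library of day 26 or WT replicate 1 of day 26, with adjusted p up to 0.109. Without the 9 libraries with epididymal transcripts the estimate was -0.32 ± 0.154 (adjusted p = 0.747).

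*Rian* stood at 17.9, 45.9, 22.9 and 20.2 CPM in WT and at 21.3, 25.8, 20.5 and 24.2 CPM in KO on day 20. The value of 45.9 CPM came from WT replicate 2, the library that stood apart, and without it the day 20 estimate turned from -0.21 to 0.16. On day 22 the values were 22, 23.4, 27.1 and 27.8 CPM in WT and 22.1, 17.3, 20 and 12.4 CPM in KO. Day 24 gave 21.3 and 22.1 CPM in WT against 19.2 and 15.2 CPM in KO. Day 26 gave 24.4 and 19.2 CPM in WT against 11.2 and 8.72 CPM in KO. The groups did not overlap on days 24 and 26, and the difference was widest on day 26, at -1.14 ± 0.329 on the log2 scale (adjusted p = 0.198). Over the mean the log2 fold change was -0.54 ± 0.14 (adjusted p = 0.0269), and -0.48 ± 0.226 without the 9 libraries (adjusted p = 0.74). The call was lost without replicate 2 of either genotype on day 24, KO replicate 2 of day 26 or WT replicate 1 of day 26 (adjusted p up to 0.0865).

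*Mirg* was at -0.21 ± 0.201 on the log2 scale on day 20 and had estimates above 0 from then on, of 0.30 on day 22, 0.45 on day 24 and 0.78 on day 26. On day 26 it stood at 8.95 and 9.7 CPM in KO and at 5.27 and 5.6 CPM in WT, and on day 24 at 5.6 and 6.6 CPM in KO and 4.72 and 4.21 CPM in WT, without overlap on either day. On days 20 and 22 the groups overlapped. Its log2 fold change of 0.33 ± 0.119 over the mean did not pass (adjusted p = 0.0932). *Dlk1*, the paternally expressed protein gene of the cluster and a relative of Notch ligands, stood on day 22 at 5.49, 6.94, 12 and 15.5 CPM in WT and at 3.81, 3.37, 4.48 and 4.29 CPM in KO, without overlap. Its log2 fold change was -1.34 ± 0.412 on day 22 (adjusted p = 0.0934) and -0.76 ± 0.262 over the mean (adjusted p = 0.0817), and neither passed with edgeR. DESeq2 gave the mean an adjusted p of 0.035. Without the 9 libraries the *Dlk1* estimate was -0.23 ± 0.233.

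*Igf2r* and *Grb10* dampen growth signals: the first encodes the receptor that clears IGF2 and carries mannose 6-phosphate proteins, and the second an adaptor that restrains insulin and IGF1 receptors. Both were abundant and their differences small. *Igf2r* (chr17:12682406-12769664, minus strand) stood on day 20 at 95.6, 88.2, 93.2 and 113 CPM in WT and at 70.2, 90.2, 87 and 82.8 CPM in KO. On day 22 it stood at 66.6, 72.1, 85.1 and 90.7 CPM in WT and at 65.7, 62.6, 70.1 and 68.6 CPM in KO. Day 24 gave 69.4 and 74.6 CPM in WT and 73.8 and 63.9 CPM in KO. These 3 days showed overlap, unlike day 26, at 62.4 and 57 CPM in WT against 47.1 and 43.3 CPM in KO. The log2 fold change over the mean was -0.24 ± 0.0674 (adjusted p = 0.0394). It passed in 7 of 24 leave-one-out fits, those without KO replicate 1 or 2 or WT replicate 2 of day 20, or without KO replicate 1, 3 or 4 or WT replicate 1 of day 22, with adjusted p up to 0.146 among the rest. Without the 9 libraries it was -0.15 ± 0.109. *Airn*, the antisense noncoding RNA that begins inside *Igf2r*, ranged from 0.402 to 3.79 CPM and had a log2 fold change of -0.55 ± 0.256 (adjusted p = 0.202).

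*Grb10* (chr11:11930508-12038683, minus strand) lay lower in KO without overlap on days 20 and 22, although neither day passed the test. On day 20 it stood at 90.2, 104, 105 and 90.2 CPM in WT and at 72, 82.1, 87.2 and 85.9 CPM in KO, and on day 22 at 86, 86.1, 88.8 and 97 CPM in WT and at 81, 66.3, 76.9 and 70.7 CPM in KO. All KO libraries lay below all WT libraries on both days. The log2 fold changes were -0.25 and -0.28 (edgeR, adjusted p = 0.244 and 0.145). Day 24 gave 68.3 and 86.9 CPM in WT and 70.5 and 74.9 CPM in KO, with overlap, and day 26 gave 81.5 and 73.9 CPM in WT and 68.7 and 68.6 CPM in KO, without. Its log2 fold change was -0.2 ± 0.0602 over the mean (adjusted p = 0.0475). It passed in 4 of 24 leave-one-out fits, those without KO replicate 2 or WT replicate 2 of day 20, KO replicate 1 of day 22 or WT replicate 1 of day 24. Without the 9 libraries it was -0.17 ± 0.098. *Ddc*, the neighbouring dopa decarboxylase gene, ranged from 0.0511 to 0.725 CPM and had a log2 fold change of 0.12 ± 0.333.

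**Figure D3:**
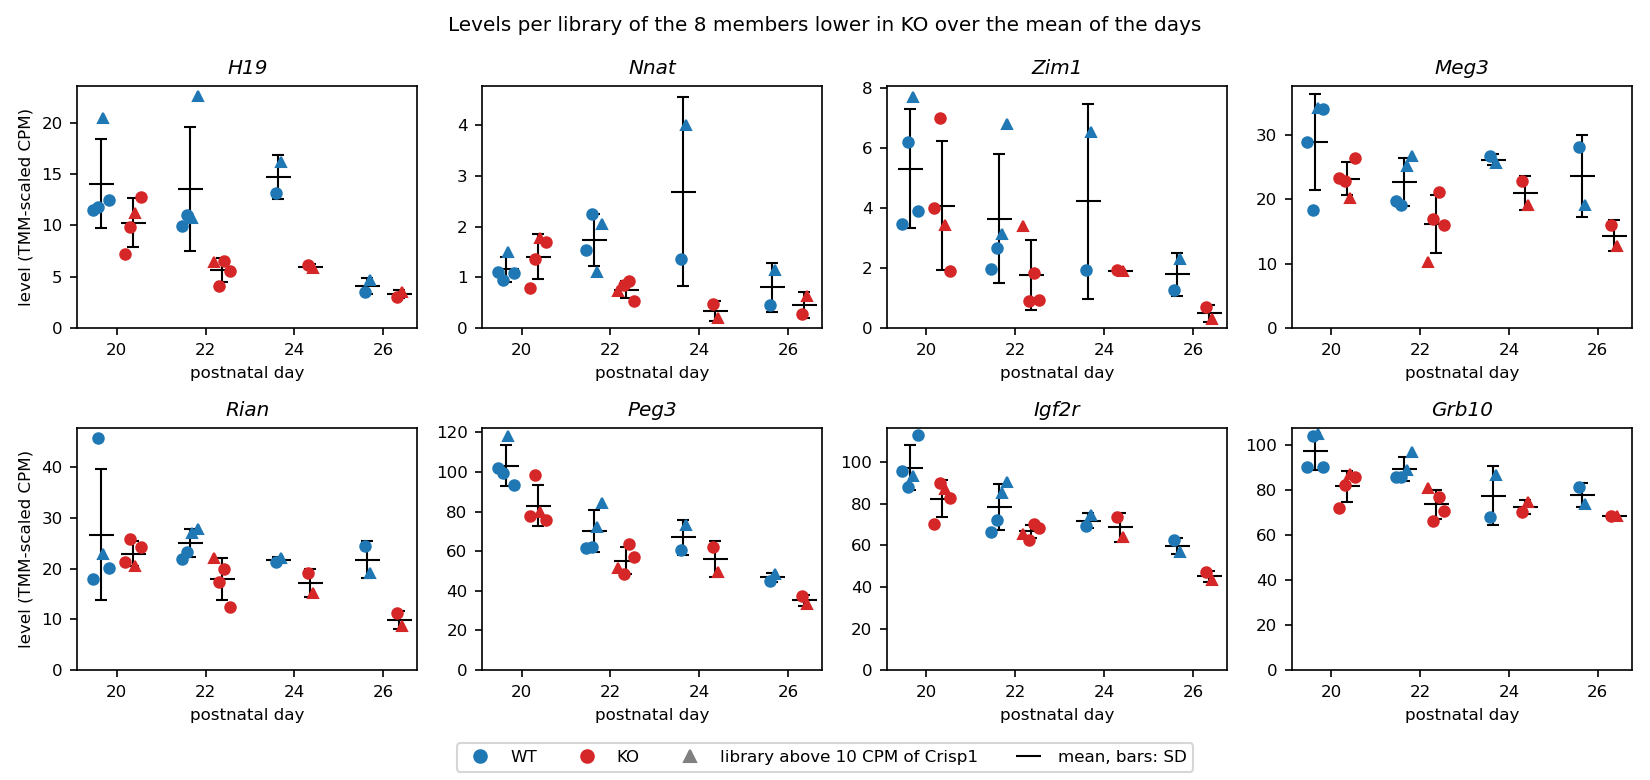
TMM-scaled CPM per library of the 8 members lower in KO over the mean of days, by postnatal day and genotype; points and triangles are libraries, triangles those above 10 CPM of *Crisp1*, and bars the mean and SD. The highest *H19* values, 20.5 and 22.6 CPM, are triangles of WT, and KO lies below WT without overlap for *Grb10* on days 20 and 22.

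Of the members in the remaining clusters none passed the test between genotypes in edgeR, whereas DESeq2 called *Mest*, *Ndn* and *Slc22a18* over the mean. *Mest*, which encodes a hydrolase-like protein and is a marker of growing mesoderm, stood on day 22 at 4.58, 4.26, 7.57 and 11 CPM in WT and at 4.11, 1.8, 3.49 and 3.35 CPM in KO, without overlap; its log2 fold change over the mean was -0.68 ± 0.221 (adjusted p = 0.0643, 0.0406 in DESeq2 and 0.0446 with the *Crisp1* level as a covariate). *Ndn*, the gene of the growth suppressor necdin, had -0.41 ± 0.126 (adjusted p = 0.0513, 0.0301 in DESeq2 and 0.0218 with a score of somatic markers as a covariate), and *Plagl1*, a zinc finger regulator, -0.39 ± 0.135 (adjusted p = 0.0797). *Slc22a18*, a membrane transporter gene, had the highest estimate of the 40, at 0.46 ± 0.143 (adjusted p = 0.0549, 0.0107 in DESeq2). It stood at 9.85 and 10.4 CPM in KO and 6.49 and 5.52 CPM in WT on day 26. *Cdkn1c*, the cell cycle inhibitor p57 of the same cluster, had -0.19 ± 0.142 and *Kcnq1ot1*, the noncoding RNA antisense to *Kcnq1* in that cluster, 0.03 ± 0.0952. The *Snrpn* cluster gave -0.13 ± 0.125 for *Ube3a*, a ubiquitin ligase gene, and 0.24 ± 0.118 for *Mkrn3*. *Gnas* had -0.14 ± 0.079 and its antisense RNA *Nespas* 0.16 ± 0.0859. Estimates over the mean for all 40 lay between -1.16 and 0.46.

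KO libraries lay apart from WT libraries, without overlap, for more members on the later days, when there were 2 libraries a group. KO was lower for 2 members on day 20, *Peg10* and *Grb10* (1.68% of all genes), and for 5 on day 22, *H19*, *Dlk1*, *Mest*, *Grb10* and *Nnat* (4.45% of all genes). No member was higher without overlap on these days, where 3.03% and 3.64% of all genes were. On day 24, 13 of 40 were lower and 7 higher, where 21.4% and 22.6% of all genes were. On day 26, 20 were lower and 5 higher, where 31.1% and 27.8% of all genes were.

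Markers of stromal, endothelial and peritubular cells of the testis moved with these results. Of 10 stromal and fetal Leydig markers, 3 fell in KO over the mean and none rose (median log2 fold change -0.35). Of 6 endothelial markers 3 fell (median -0.48), and of 7 peritubular myoid markers 2 fell (median -0.45), with none higher in either list. Summed levels of the stromal list ran from 702 to 1104 CPM in WT and from 819 to 936 CPM in KO on day 20. On day 22 they ran from 732 to 976 CPM in WT and from 338 to 725 CPM in KO, lowest in KO replicate 4, without overlap. The later days also showed none, with 709 to 888 CPM in WT and 614 to 684 CPM in KO on day 24, and 571 to 623 CPM in WT and 475 to 505 CPM in KO on day 26. No marker of these 3 lists was at or under 3 counts in every library. The 10 Sertoli markers had a median of -0.05 and the 6 macrophage markers one of 0.04, with none called. Adult Leydig markers lay the other way, with a median of 0.38 and 1 of 9 higher over the mean, but not on day 26, where their median was -0.45.

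With the stromal list's mean log2 level as a covariate, none of the 8 members passed and 0.507% of all genes did. The estimate for *Grb10* was then -0.06 ± 0.0699, for *Zim1* -0.21 ± 0.326 and for *Rian* -0.26 ± 0.176. *H19* was at -0.48 ± 0.193, against -0.83 without the covariate, and *Nnat* at -0.83 ± 0.34, against -1.16. *Meg3* was at -0.49 ± 0.178, against -0.47, *Igf2r* at -0.20 ± 0.0927, against -0.24, and *Peg3* at -0.22 ± 0.103, against -0.33. That score itself differed between the genotypes, so the fit removes any part of a KO effect that runs with it. With the *Crisp1* level in its place, 5 of the 8 and *Mest* passed, all lower, and 5.71% of all genes did. The calls lost there were those of *Igf2r* (adjusted p = 0.0579), *Zim1* (0.0603) and *Grb10* (0.0649). With the stage of germ cells as a covariate (round spermatid minus pachytene list), *H19*, *Meg3* and *Nnat* passed, at -0.86 ± 0.184, -0.56 ± 0.134 and -1.24 ± 0.288, where 2.02% of all genes did.

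**Figure D4:**
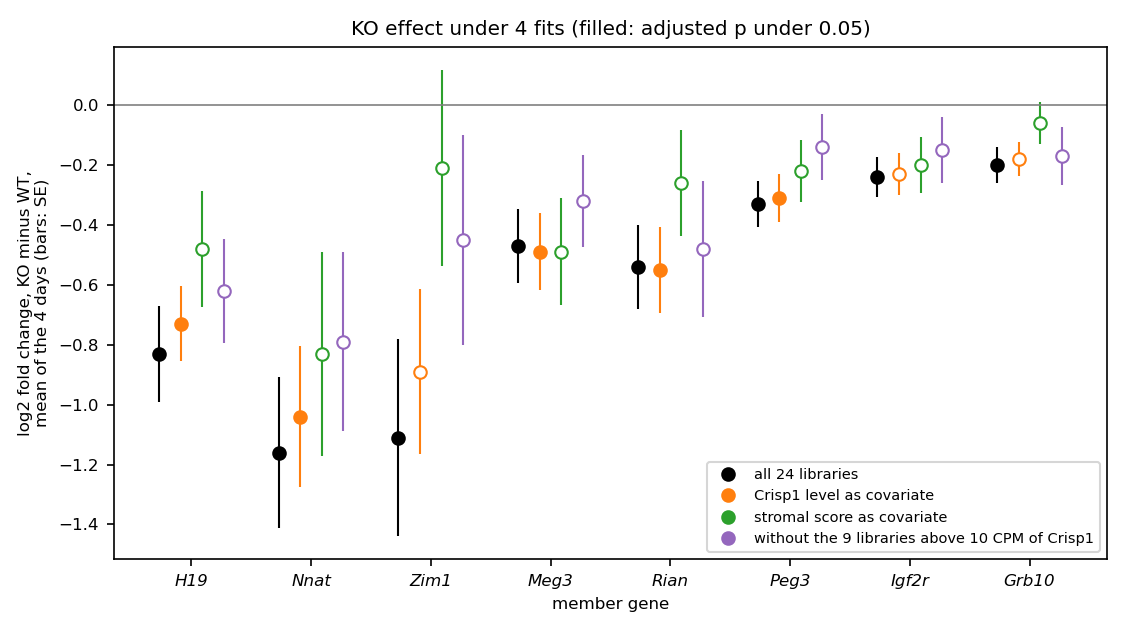
Log2 fold change over the mean of days with its SE for the 8 members under 4 fits; filled points passed at an adjusted p under 0.05. All estimates lie below 0, and no point is filled with the stromal score as covariate. The fit without the 9 libraries with epididymal transcripts kept 1 library of each genotype on days 24 and 26.

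More members passed with age than with genotype. Between days 20 and 26, 18 of the 40 members fell and 3 rose in WT, where 42.5% of all genes changed (18.1% lower, 24.4% higher). In KO 23 fell and 4 rose, where 52.2% of all genes changed (24.9% lower, 27.2% higher). An unadjusted p under 0.05 was seen for 26 members in WT (49.9% of all genes) and 29 in KO (58% of all genes). The members' median log2 change was -0.46 in WT and -0.63 in KO, against -0.04 and -0.07 over all genes. With the stage of germ cells as a covariate no member passed in WT (0.00582% of all genes) and 9 did in KO (16.8%). The stage score ran from -3.31 to -1.99 in WT on day 20 and was 2.2 and 2.21 on day 26. In KO it ran from -2.49 to 0.5 and was then 1.78 and 1.81. In WT the score was thus nearly set by age, so these fits cannot separate age from germ cell stage. Without WT replicate 1 of day 26, 12 members passed in WT (30.1% of all genes), and without KO replicate 2 of day 26, 15 did in KO (33.4%). Germ cell transcripts rose over the same days: the summed level of 7 elongating spermatid markers went from at most 6.91 CPM in WT on day 20 to at least 1681 CPM on day 26. CPM values are shares of a library, so a gene at a constant level in somatic cells reads lower as other RNA grows, and the 2 cannot be told apart here.

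The same 16 members changed in both genotypes, each in the same direction. *Dlk1* fell furthest, by 2.26 on the log2 scale in WT (adjusted p = 0.00287) and by 3.22 in KO (adjusted p = 0.000241). WT went from 9.59, 6.84, 26 and 12.4 CPM on day 20 to 2.84 and 2.94 CPM on day 26, and KO from 12.3, 22.6, 9.11 and 10.4 CPM to 1.72 and 1.2 CPM. With the stage of germ cells as a covariate the WT estimates moved to -0.89 for *Dlk1* and -0.63 for *Peg3*, neither of which passed, and the estimate of *H19* then lay further from 0 than that of *Dlk1*. *H19* fell by 1.79 in WT and by 1.64 in KO (adjusted p = 0.000233 and 0.000551), *Peg3* by 1.14 and by 1.23, and *Inpp5f*, a phosphoinositide phosphatase gene, by 1.05 and by 0.92. With the stage of germ cells as a covariate the WT estimate of *Inpp5f* turned to 0.16. *Plagl1* fell by 0.94 and by 0.93, *Igf2* by 0.76 in each genotype, *Peg10* by 0.73 and by 0.77, and *Igf2r* by 0.71 and by 0.87. These 8 include growth promoters and growth restrainers alike.

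The members that rose in both genotypes were *Rasgrf1* and *Slc22a18*. *Rasgrf1*, which encodes an exchange factor that activates RAS, stood at 0.943, 1.05, 2.08 and 1.58 CPM in WT on day 20 and at 5.33 and 8.97 CPM on day 26. In KO it stood at 1.23, 1.18, 2.25 and 2.98 CPM on day 20 and at 5.92 and 7.52 CPM on day 26. The log2 changes were 2.29 ± 0.372 in WT and 1.81 ± 0.363 in KO (adjusted p = 3.95e-05 and 0.000373), and the ages did not overlap in either genotype. With the stage of germ cells as a covariate, whose score follows age in WT, the WT estimate turned to -0.44, and the KO estimate was 0.44. *Slc22a18* rose by 1.21 ± 0.285 in WT and 1.62 ± 0.273 in KO, and with that covariate its estimates were 0.70 and 1.34. A further 11 members passed in KO and not in WT, of which *Mirg* and *Sfmbt2* rose, and 5 passed in WT and not in KO, of which *Usp29* rose. The age change itself did not differ between genotypes for any of the 40 (edgeR, 0 called, where 0 of all 17170 genes were). DESeq2 also called 0 members, where it called 1.26% of all genes. In edgeR there were 5 members (10.8% of all genes) with an unadjusted p under 0.05. Among these, the age change of *Usp29* was 1.97 lower in KO (SE 0.587, adjusted p = 0.194) and that of *Mirg* 0.99 higher (SE 0.336, adjusted p = 0.245). The KO effect differed between days for 0 members in edgeR, where 0.00582% of all genes passed, with 3 members (9.06% of all genes) at an unadjusted p under 0.05. DESeq2 called 1, *Nnat*, where it called 1.59% of all genes.

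**Figure D5:**
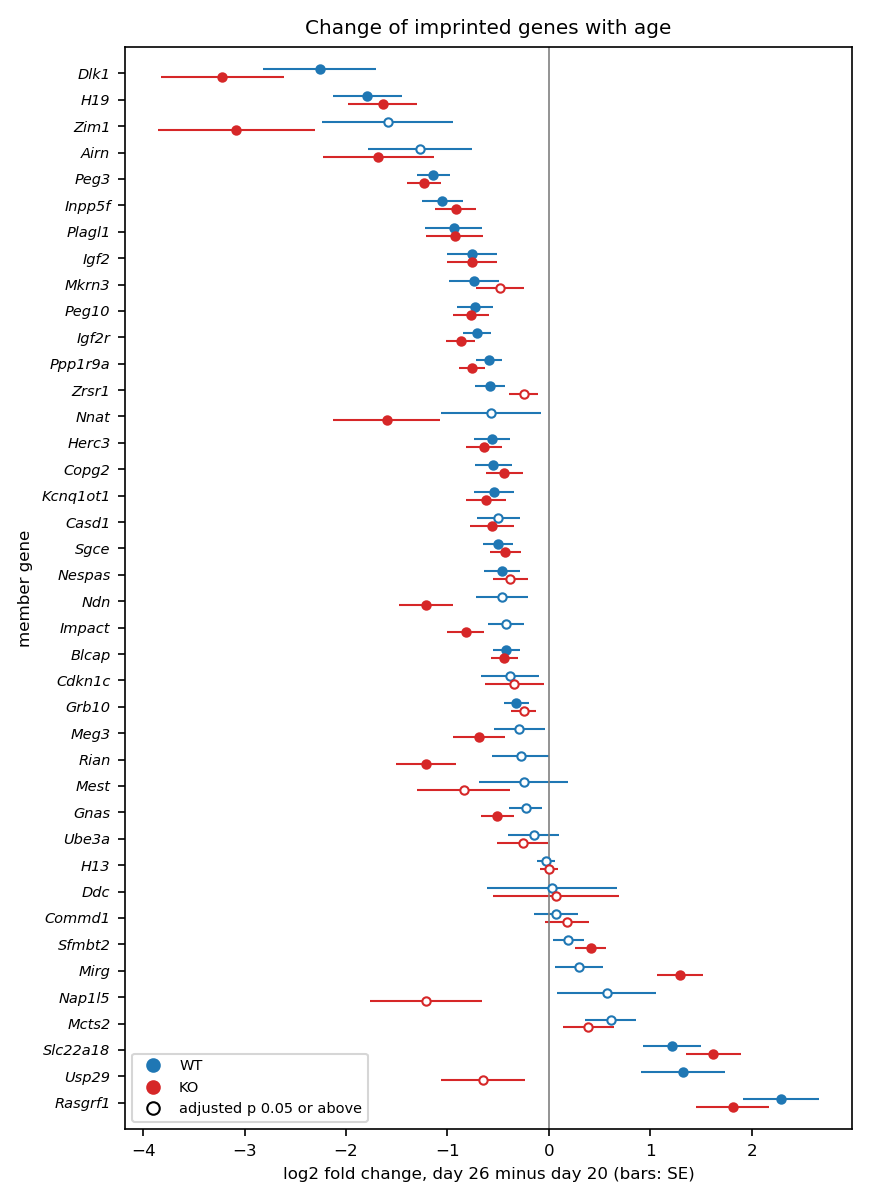
Log2 change from day 20 to day 26 with its SE for the 40 tested members in WT and KO; filled points passed at an adjusted p under 0.05. *Dlk1* lies furthest left at -2.26 in WT and -3.22 in KO, and *Rasgrf1* furthest right at 2.29 and 1.81.

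Other genes of imprinted clusters, from a list of 42 of which 30 were tested, gave a further result. Over the mean of days 3 fell and none rose, 10% of those tested against 7.08% of all genes, and their median log2 fold change was -0.10. *Asb4*, a SOCS-box gene of the *Peg10* cluster expressed from the maternal copy (chr6:5383386-5433022, plus strand), was lower in KO on each day. It stood on day 20 at 32.5, 14.4, 17.9 and 29.4 CPM in WT and at 7.83, 3.86, 4.16 and 3.18 CPM in KO, and on day 22 at 52.1, 40.4, 56.6 and 61.1 CPM in WT and at 4.05, 7.09, 3.1 and 3.55 CPM in KO. Day 24 gave 47.1 and 50.7 CPM in WT against 5.94 and 8.17 CPM in KO, and day 26 51.4 and 65.3 CPM against 8.13 and 11 CPM. Every KO library lay below every WT library on each day, and the gap was smallest on day 20. The log2 fold change over the mean was -2.82 ± 0.184 (adjusted p = 6.53e-09), and it lay between -3.12 and -2.75 in 35 fits, all of which called it. The members of this cluster on the same chromosome, *Peg10*, *Sgce*, *Ppp1r9a* and *Casd1*, had estimates of -0.23, -0.18, -0.01 and -0.06, and none passed. The other genes that fell were *Dio3*, the deiodinase that inactivates thyroid hormone, in the *Dlk1* cluster (-0.95 ± 0.25, adjusted p = 0.0291) and *Slc22a3*, an organic cation transporter gene near *Igf2r* (-1.98 ± 0.489, adjusted p = 0.0226). Both were close to the floor, with at most 15 counts of *Dio3* and 28 of *Slc22a3* in a library. *Dio3* had estimates of -2.13 on day 24 and 0.40 on day 26, and did not pass in DESeq2 (adjusted p = 0.0586). *Slc22a3* was at -4.64 on day 24, where KO held 0 and 1 counts and WT 0.186 and 1.9 CPM, at -1.04 on day 22 and at -1.23 on day 26. Neither passed with the stromal score as a covariate (-0.40 ± 0.31 and -1.25 ± 0.691) or with the stage score (adjusted p = 0.126 and 0.111). *Dio3* was at -0.76 ± 0.41 without the 9 libraries with epididymal transcripts (adjusted p = 0.795) and there *Slc22a3* was below the filter.

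Of 28 tested genes that set or keep imprints, 3 fell over the mean of days and none rose, 10.7% against 7.08% of all genes (3.56% lower), with a median log2 fold change of -0.02. They were the genes of the 3 enzymes that oxidise methylated cytosine, *Tet1* (-0.37 ± 0.0858, adjusted p = 0.0164), *Tet2* (-0.28 ± 0.0696, adjusted p = 0.0226) and *Tet3* (-0.27 ± 0.0714, adjusted p = 0.0296). With the stromal score as a covariate these were -0.12 ± 0.0826, -0.16 ± 0.0888 and -0.20 ± 0.0962, and without the 9 libraries with epididymal transcripts -0.41 ± 0.141, -0.30 ± 0.124 and -0.21 ± 0.118, and none passed in either fit. With the stage score their adjusted p were 0.0785, 0.121 and 0.109. By day, 1 of 28 was called on day 20 and 1 on day 22, 3.57% each, against 3.34% and 2.51% of all genes. *Arid4a*, a chromatin gene linked to imprinting of the *Snrpn* cluster, was lower in KO on day 20 (-0.45 ± 0.0966, adjusted p = 0.0118), and *Ctcfl*, the testis paralogue of CTCF, was higher on day 22 (0.73 ± 0.181, adjusted p = 0.0355).

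The promoter windows of the members were compared with those of all genes as a description. RefSeq windows of 250 bases before a start were found for 38 members, 56 windows in all. Their median number of CpG was 10, against 6 over 32851 windows. Motifs were searched on both strands. A GC box (GGGCGG) was present in 48.2% of the members' windows and 32.7% of all windows, a CCAAT box (CCAAT) in 30.4% and 33.8%, and TATAAA in 19.6% and 12.4%. The element TGACGTCA was found in 3.57% and 1.55%, in windows of *Meg3* and *Peg3*, and GCCATNTT, the core of YY1 sites, in 3.57% and 3.91%. Windows of 1 gene can overlap, so they are not independent. Of the 8 members that fell over the mean, *Igf2r*, *Zim1* and *Grb10* had a GC box in a window and *Meg3*, *Peg3*, *Nnat* and *Rian* had none.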

How the data were processed

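Total RNA was measured in 24 testis libraries, grouped by genotype and day from the sample labels. By the methods and the submitters' processing notes, the authors depleted ribosomal RNA, made strand-specific libraries and sequenced read pairs. They aligned these untrimmed to mm10 with STAR 2.7.11b and counted them per gene with HTSeq 2.0.5 (exons, reverse strand, intersection-strict). In that mode a pair counts where exactly 1 gene holds all its bases in exons. Their gene models are not given in the sources used here. What the authors deposited are counts of read pairs, not normalized. The rows that name no gene were left out of library sizes; uniquely aligned reads outside exons made up 45.1% to 58.5% of all.

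Counts were scaled by TMM and filtered (filterByExpr, minimum count 10). All 24 libraries were fitted in edgeR 4.0.16 (R 4.3.3) with a coefficient for each of 8 groups and a robust quasi-likelihood test, and p-values were adjusted over 17170 genes. CPM are TMM-scaled; RPKM use exon lengths of GENCODE, which also gave coordinates. Values after ± are SE. The members and lists were chosen with earlier results of these data known. Members called between genotypes were described by library, and the 10 with the largest age change in WT among those called in both genotypes were named. Sequences came from RefSeq tables of GRCm38.p6. On simulated counts for 17044 genes, 90% of 2-fold and 34% of 1.5-fold changes were recovered on day 20. The shares were 48% and 8% on day 26, and 98% and 80% over the mean of days. Changes were placed only in genes with a mean count above 30, and counts were drawn without differences shared by a library. Members below that mean, such as *Nnat*, *Usp29*, *Ddc* and *Nap1l5*, are not covered. Alternatives were DESeq2 1.42.0, other size factors and filters, a replicate block, covariates and leaving out libraries. The study's text gives another number of replicates for day 20 than the labels, and the labels were followed.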

Additional observations from a re-analysis of the deposited data

Results flagged for a closer look

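In groups of 4 libraries (days 20 and 22), 12 of 160 combinations of member and group held a library whose gap to the nearest of the others exceeded Dixon's 95% critical value; chance gives about 1 in 20 (5%). *H19* was high in WT replicate 3 of day 20, at 20.5 CPM against 11.5 to 12.5 CPM in the others, and in WT replicate 4 of day 22, at 22.6 CPM against 9.93 to 11 CPM, both libraries with epididymal transcripts. WT replicate 2 of day 20 was high for *Commd1* at 63.4 CPM, *Herc3* at 21.6 CPM and *Mcts2* at 37.3 CPM. WT replicate 1 of day 22 was low for *Ppp1r9a* at 113 CPM and *Inpp5f* at 18.7 CPM. KO replicate 1 of day 20 was low for *Plagl1* at 18.2 CPM and *Ndn* at 17.2 CPM. *Impact* was low at 26.5 CPM in KO replicate 4 of day 20, *Herc3* high at 14.3 CPM in KO replicate 4 of day 22 and *Mkrn3* high at 3.2 CPM in WT replicate 3 of day 22.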

How the results depend on the processing

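Over the mean of days, 8 members were called in the reported fit, where 7.08% of all genes were. The count was 8 with the size factors of DESeq2 in edgeR (7.04% of all genes) and 12 in DESeq2 (10.6%). It was 7 at a minimum count of 30 (7.68%) and 5 without a filter (4.27%). As covariates, the *Crisp1* level gave 6 (5.71%) and a somatic score 8 (8.51%). With the somatic score *Zim1* was lost and *Ndn* gained (edgeR, adjusted p = 0.0556 and 0.0218). The count was 3 with the stage score as covariate (2.02% of all genes) and 0 with the stromal score (0.507%). The fit without the 9 libraries above 10 CPM of *Crisp1* kept 1 library of each genotype on days 24 and 26. Leaving out each library gave 1 (without WT replicate 2 of day 24) to 12 (without KO replicate 1 of day 22). It was 5 or fewer in 14 of these 24 fits, those without KO replicate 3 or 4 or WT replicate 3 of day 20, KO replicate 2 or WT replicate 2, 3 or 4 of day 22, or any library of days 24 and 26 other than WT replicate 1 of day 24. Those of the 14 fits without a library of day 20 or 22 called 3.96% to 5.68% of all genes. Leaving out a library of day 24 or 26 left 1 library in its group. The limit on *Crisp1* and the stromal and *Crisp1* covariates were chosen after seeing the data. On day 22 the count of 1 became 2 with the somatic score (3.86% of all genes), with the *Crisp1* level (2.5%) or in DESeq2 (4.36%). It became 0 with the stromal score (0.122%) or with only the 2 groups compared (0.438%). Over leave-one-out fits it ran from 0 to 2, where 0.35% to 5% of all genes were called. On day 24 it became 1 with the stage score (0.215% of all genes), with the *Crisp1* level (0.128%) or in DESeq2 (0.233%). On day 26 it became 9 with only the 2 groups compared, 2 higher and 7 lower, where 12.8% of all genes were called. On each of these 2 days it was 0 to 1 over leave-one-out fits. Age calls in WT, 21, became 0 with the stage score (0.00582% of all genes), and 8 without the 9 libraries (16.5%) or with only the 2 groups compared (20.2%), and ran from 12 (without WT replicate 1 of day 26, 30.1%) to 24 (44.5%) over leave-one-out fits. Those in KO, 27, became 9 with the stage (16.8%) or the stromal score (20.9%) and 10 without the 9 libraries (17.7%), and ran from 15 (without KO replicate 2 of day 26, 33.4%) to 28 over leave-one-out fits. DESeq2 called 1 member for a KO effect that differs between days, where it called 1.59% of all genes. The cause of these shifts was not tested; fits without libraries also have fewer samples.

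Estimates that turned their sign were those of *Igf2r*, KO against WT, day 24 (0.08 without the 9 libraries, -0.17 to 0.04 over leave-one-out fits, above 0 without replicate 2 of either genotype of that day), *Grb10* on day 24 (0.04 without the 9 libraries, 0.03 with the stromal score, -0.25 to 0.11 over leave-one-out fits, above 0 without WT replicate 2 of that day), *Peg3* on day 24 (0.03 without the 9 libraries), *Zim1* on day 20 (0.68 with the stage score), day 22 (0.55 with the stromal score) and day 24 (0.00 without the 9 libraries, -1.76 to 0.01 over leave-one-out fits, above 0 without WT replicate 2 of that day), *Rian* on day 20 (-0.36 to 0.16 over leave-one-out fits, above 0 without WT replicate 2 of that day) and day 22 (0.05 with the stromal score), and *Ndn* over the mean (0.03 with the stromal score). With the stage score, which itself follows age in WT, the age change in WT turned to -0.44 for *Rasgrf1* and to 0.16 for *Inpp5f*. None of these passed the test in that fit.

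With the replicate number as a block, 6 members were called over the mean in place of 8, *Zim1* (-1.09, adjusted p = 0.0834) and *Grb10* (-0.20, adjusted p = 0.0575) being lost, and 26 in place of 27 for age in KO; the other counts were the same. Deviations of same-numbered libraries correlated at 0.0705 to 0.41 on day 20, at -0.459 to -0.0254 on day 22, and at 0.39 and 0.416 on days 24 and 26. On day 20, 3 of 4 numbers correlated best with their own, on day 22 none, and on days 24 and 26 both. With 2 libraries a group, the correlations of a day are equal by construction. Given days 20 and 22, the numbers were not taken to pair libraries. With 2 libraries a group on days 24 and 26, 48% of simulated 2-fold changes were recovered on each, and for *Nnat*, *Zim1*, *Usp29*, *Ddc* and *Nap1l5* low counts limit the precision further.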
